A study of Caenorhabditis elegans with 8 samples.

Results

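Nuclear hormone receptor (NHR) genes were followed by RNA-seq in whole L4 larvae of C. elegans. Members were all genes of the deposited normalized table whose symbol is nhr- followed by a number, other than *nhr-49*, *nhr-13*, *nhr-66*, *nhr-80* and *nhr-105*. This gave 187 members among 14334 genes in the table. The 4 groups had 2 libraries each, which the labels number 1 and 3: *nhr-49(nr2041)* mutants exposed to tBOOH, *nhr-49(nr2041)* mutants left untreated, N2 wild-type worms exposed to tBOOH, and N2 worms left untreated. Exposure was to 7.5 mM tBOOH, tert-butyl hydroperoxide, an organic peroxide, for 4 hr. All worms grew on E. coli OP50, and according to the study's methods the mutation was backcrossed into its own N2 strain. The study treats nr2041 as a null allele of *nhr-49*, so the loss is not limited to a tissue or stage. The study describes the libraries of a group as biological replicates. Neither it nor the labels say whether they came from cultures grown apart, so p-values measure the spread between these libraries.

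NHRs are transcription factors that bind DNA through a zinc finger domain and, in many cases, a small lipophilic ligand through a second domain. The family is greatly expanded in nematodes, mostly by receptors related to HNF4, while a minority has clear orthologues in insects and vertebrates. NHR-49 is one of the HNF4-related receptors and controls genes of fatty acid metabolism together with the Mediator subunit MDT-15. Receptors of the family act in fat and one-carbon metabolism, detoxification, immunity, moulting and developmental timing.

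Of 277 nhr symbols in the deposited counts, 192 were in the normalized table, which keeps genes above 1 CPM (the count scaled to library size and composition) in at least 2 libraries. The 85 symbols outside it were not tested. They included 20 with 0 counts in all 8 libraries, and no library had more than 14 counts for any of them. Just inside the limit, *nhr-77* averaged 0.27 CPM over the 8 libraries and *nhr-150* averaged 0.421 CPM. Just outside it, *nhr-194* averaged 0.715 CPM and *nhr-30* averaged 0.547 CPM, each above 1 CPM in 1 library. The limit was passed in all 8 libraries by 131 members, only in *nhr-49* libraries by 14, and only in N2 libraries by 0. These 14 had to be higher in the mutant, so the counts of members given here describe the genes in the table and not the whole family.

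Library totals ranged from 2157766 to 5852727 counts, and 3 counts, the lowest number taken as detection here, stood for 0.508 to 1.55 CPM. Such limits cover counting error only. Reads remained on *nhr-49* itself, with 140 and 133 counts in tBOOH-treated mutants, 41 and 97 in untreated mutants, 648 and 568 in tBOOH-treated N2 and 298 and 345 in untreated N2, and counts per gene do not show which part of it they cover. The label of untreated N2 replicate 1 cites another catalogue number for the library kit than those of the other 7 libraries, and its part in the values was not tested. Markers of intestine, hypodermis, muscle, neuron, germline, sperm, oocyte and yolk were all detected. The replicate 3 libraries of the mutant stood apart. The 3 yolk genes *vit-2*, *vit-5* and *vit-6* summed to 65790 and 3494 CPM in tBOOH-treated mutants (replicates 1 and 3) and to 56690 and 770 CPM in untreated mutants, against 21140 to 81530 CPM in the N2 libraries. The 3 oocyte markers *oma-2*, *rme-2* and *cbd-1* summed to 2408 and 261 CPM in tBOOH-treated mutants and 1663 and 340 CPM in untreated mutants, against 1110 to 2202 CPM in N2. In whole worms, fewer cells of a type and less RNA per cell cannot be told apart.

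The receptor genes moved with this difference between libraries. In tBOOH-treated mutants 150 members were higher in replicate 3 than in replicate 1 and 37 were lower, and in untreated mutants 146 were higher and 40 were lower. In N2 the split was even, with 84 higher and 93 lower after tBOOH and 89 higher and 87 lower without it. These splits were counted for the members only, so they are not shown to be particular to receptor genes. The replicates differed by more than 2-fold (on CPM + 1) for 59 members (31.6%) in tBOOH-treated mutants and 67 (35.8%) in untreated mutants. In N2 they did so for 6 (3.21%) with tBOOH and 7 (3.74%) without. Over all genes these shares were 20.7%, 28.2%, 8.23% and 6.84% in the same order of groups. Summed over the members, the level was 2342 and 3047 CPM in tBOOH-treated mutants, 2025 and 2812 CPM in untreated mutants, 2452 and 2277 CPM in tBOOH-treated N2 and 2014 and 1997 CPM in untreated N2. The 2 highest sums were thus those of the mutant replicate 3 libraries. The part of this library difference in the results was not tested, and counts without these 2 libraries are given beside the main ones.

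**Figure D1:**
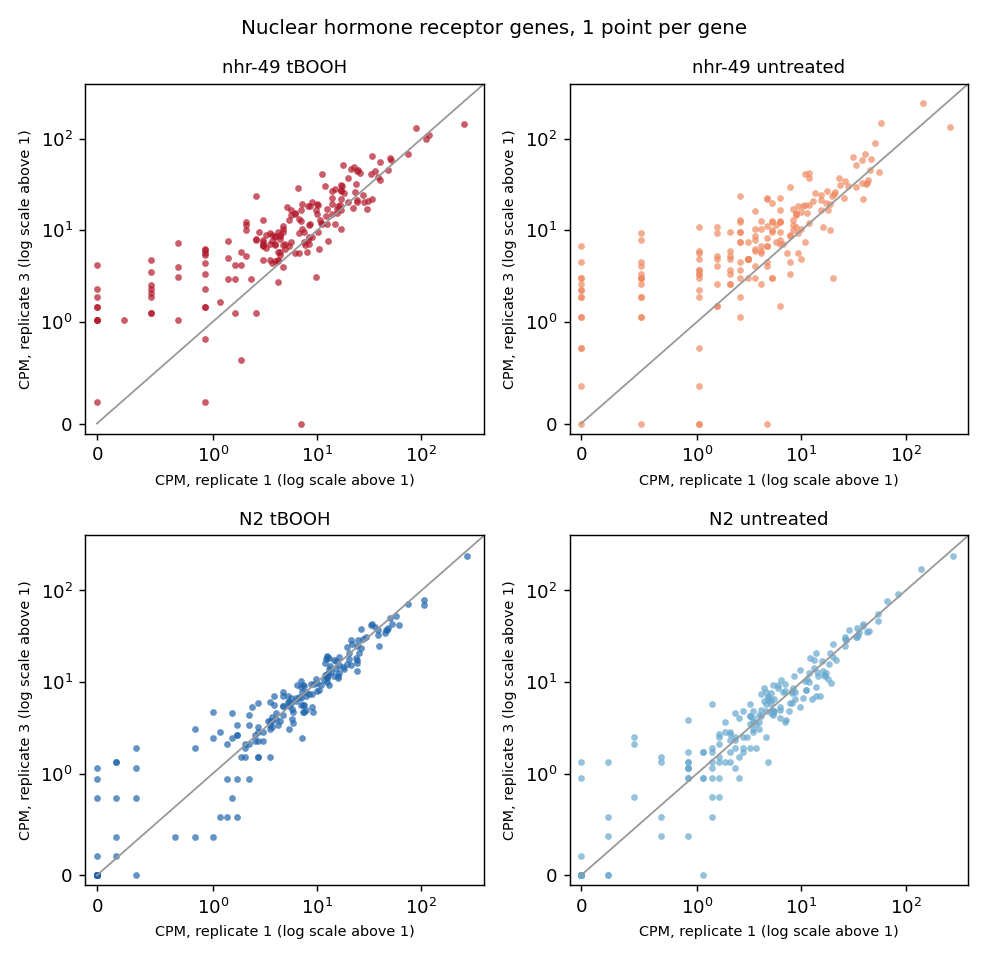
Level of each of the 187 receptor genes in replicate 3 (vertical, CPM) against replicate 1 (horizontal, CPM), 1 panel per group, with both axes linear to 1 and logarithmic above it and the line marking equal levels. Points lie along the line in both N2 groups and mostly above it in both *nhr-49* groups, where 150 and 146 members were higher in replicate 3.

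Most receptor genes were expressed at low levels. The median member had a mean of 5.5 CPM over the 8 libraries, against 13.6 CPM for all genes tested, and 64 members averaged at least 10 CPM. Per kb of coding length the median was 4.81 CPM per kb for the 182 members with a length in the WBcel235 annotation, against 12.8 CPM per kb for all coding genes. Chromosome V carried 113 members, or 60.4%, whereas it carried 17.7% of all genes tested. Per kb, *nhr-27* led with 217 CPM per kb, but its exons overlap those of *gei-3* on the same strand, so its reads cannot be assigned with certainty. Next came *nhr-97* with 91.7, *nhr-114* with 52.7, *nhr-3* with 43.2 and *nhr-31* with 38.8 CPM per kb. In *nhr-27* the level was 256 and 145 CPM in tBOOH-treated mutants, 266 and 134 CPM in untreated mutants, 276 and 236 CPM in tBOOH-treated N2 and 285.7 and 238.5 CPM in untreated N2. Groups overlapped in each of the 4 comparisons of this gene.

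The first comparison asked which receptor genes responded to tBOOH in mutants that lack NHR-49. At an adjusted p under 0.05 (exact test of edgeR, Benjamini-Hochberg over 14334 genes), 7 of 187 members rose (3.74%, against 2.72% of all genes) and 2 fell (1.07%, against 1.91%). The risers were *nhr-88*, *nhr-180*, *nhr-182*, *nhr-237*, *nhr-3*, *nhr-228* and *nhr-58*, and those that fell were *nhr-91* and *nhr-114*. Both treated libraries lay above both untreated ones for 45 members (24.1%, against 19.6% of all genes) and below them for 16 (8.56%, against 18.9%). The median fitted log2 fold change was 0.31 for the members and 0.04 for all genes. The members' median was -0.11 without replicate 3 and 0.67 without replicate 1 of the treated mutants, and 0.76 without replicate 3 and 0.03 without replicate 1 of the untreated mutants, so its direction rests on single libraries. Without the mutant replicate 3 libraries, a fit that borrows the spread of the N2 groups called 4 members higher, 1 of them among the 7, and 0 lower. Left out alone, replicate 3 of the treated mutants took the count higher to 1 and replicate 3 of the untreated mutants took it to 2, whereas replicate 1 of the treated mutants took it to 17.

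*nhr-88*, on chromosome II, had 118 and 110 CPM in tBOOH-treated mutants and 42.5 and 32.7 CPM in untreated mutants. The log2 fold change was 1.60 ± 0.38 (adjusted p = 0.00239, exact test of edgeR; here and below the SE is that of the DESeq2 fit of the same contrast). It was the only member that the quasi-likelihood test of edgeR also called in this comparison (adjusted p = 0.0449), and the call was lost on leaving out replicate 3 of the untreated mutants (adjusted p = 0.0952). In N2 its levels were 106 and 69.5 CPM with tBOOH and 44.4 and 36.2 CPM without, which did not overlap but did not pass (log2 fold change 1.12 ± 0.37, adjusted p = 0.0551, exact test of edgeR).

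*nhr-180*, on chromosome V, had 19.8 and 36.8 CPM in tBOOH-treated mutants and 7.25 and 5.58 CPM in untreated mutants. Its log2 fold change was 2.15 ± 0.58 (adjusted p = 0.00561, exact test of edgeR). Its exons overlap *srh-266* on the opposite strand, a chemoreceptor gene with 3 counts in 1 of the 8 libraries and 0 in the others. *nhr-182*, on the same chromosome, had 22.7 and 48.7 CPM in tBOOH-treated mutants and 9.32 and 9.30 CPM in untreated mutants, and rose by 1.94 ± 0.54 (adjusted p = 0.00896, exact test of edgeR). Leaving out either replicate 3 library of the mutant ended the call of both genes.

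*nhr-3*, on chromosome X, had 88.04 and 131 CPM in tBOOH-treated mutants and 45.6 and 45.4 CPM in untreated mutants, a log2 fold change of 1.27 ± 0.36 (adjusted p = 0.0166, exact test of edgeR). With tBOOH both mutant libraries also lay above the N2 libraries, which had 49.7 and 49.8 CPM. Its exons overlap the non-coding gene H01A20.4, so its counts are not certain to be its own. H01A20.4 itself had 1 count in tBOOH-treated N2 replicate 3 and 0 in every other library. *nhr-228* had 14.01 and 15.2 CPM in tBOOH-treated mutants and 5.18 and 2.98 CPM in untreated mutants, and *nhr-58* had 13.8 and 19.6 CPM against 4.66 and 6.70 CPM. *nhr-237* was at 19 and 28 counts in tBOOH-treated mutants and at 0 and 2 counts in untreated mutants, a ratio of counts per scaled total of 11.9 with a 95% counting interval of 3.13 to 101. The groups did not overlap for these genes, but the calls of *nhr-3*, *nhr-228* and *nhr-58* were each lost in at least 6 of the 8 fits that leave out 1 library, and that of *nhr-237* in 3.

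*nhr-91*, on chromosome X, is the orthologue of vertebrate GCNF and insect HR4, a receptor of the ecdysone timing cascade in insects. Its exons overlap *glb-28* on the opposite strand, so part of its counts may belong to that gene, which itself was counted at 0 to 5 reads per library. It had 8.41 and 11.4 CPM in tBOOH-treated mutants and 27.97 and 30.5 CPM in untreated mutants, and fell by 1.55 ± 0.46 on the log2 scale (adjusted p = 0.012, exact test of edgeR). Untreated mutants stood highest of the 4 groups, since N2 had 8.80 and 9.47 CPM with tBOOH and 16.3 and 12.1 CPM without. The call was lost without replicate 1 of the treated mutants, replicate 3 of the untreated mutants, replicate 3 of tBOOH-treated N2 or replicate 1 of untreated N2.

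**Figure D2:**
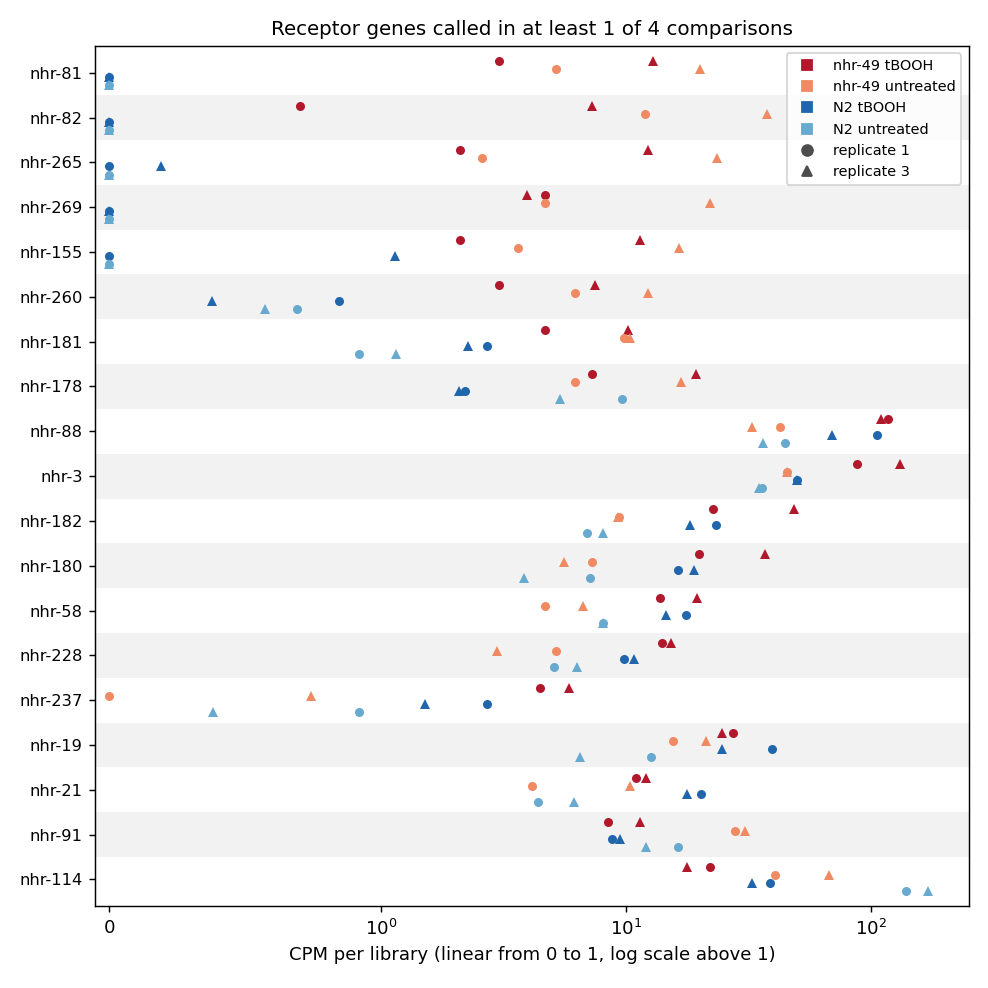
Levels of the 19 receptor genes called in at least 1 of the 4 comparisons, 1 row per gene, with CPM per library on an axis that is linear to 1 and logarithmic above it (colour, group; circle and triangle, replicates 1 and 3). *nhr-81*, *nhr-82*, *nhr-265*, *nhr-269* and *nhr-155* lie at or near 0 in N2, while *nhr-114* is highest in untreated N2.

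The same question was put to N2. Here tBOOH raised 3 of 187 members (1.6%, against 2.2% of all genes) and lowered 1 (0.535%, against 3.14%). At an unadjusted p under 0.05 there were 24 higher and 5 lower, and all genes were not counted at that limit. *nhr-180*, *nhr-19* and *nhr-21* rose and *nhr-114* fell. Both treated libraries lay above both untreated ones for 93 members (49.7%, against 32.3% of all genes) and below them for 17 (9.09%, against 27.5%). The median fitted log2 fold change was 0.48 for the members and 0.05 for all genes, and without replicate 3 of tBOOH-treated N2 the members' median was 0.30. Among members with a mean of at least 10 CPM it was 0.46, with 37 of 64 members separated upwards and 8 downwards, against a median of 0.08, with 3046 of 7984 upwards and 2410 downwards, for all genes of that level. On chromosome V the members' median was 0.58, with 60 of 113 separated upwards (all genes of the chromosome 0.10, 873 of 2544). On the other chromosomes it was 0.14, with 31 of 69 separated upwards (all genes there 0.05, 3227 of 10138). With dispersions estimated from the 4 N2 libraries alone, the exact test of edgeR called 23 members higher and 6 lower, but its calls over all genes also grew, to 1136 higher and 1181 lower, against 316 and 450 with all 8 libraries. Its quasi-likelihood test called 0 members higher and 1 lower.

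*nhr-180* had 16.2 and 18.9 CPM in tBOOH-treated N2 and 7.13 and 3.83 CPM in untreated N2 (log2 fold change 1.69 ± 0.56, adjusted p = 0.0356, exact test of edgeR). It was the only member called higher with tBOOH in both genotypes, 0.535% of members against 1.2% of all genes. *nhr-19*, on chromosome II, had 39.6 and 24.6 CPM in tBOOH-treated N2 and 12.7 and 6.51 CPM in untreated N2, a log2 fold change of 1.75 ± 0.50 (adjusted p = 0.0102, exact test of edgeR). Its exons overlap *mrpl-53*, a mitochondrial ribosomal protein gene on the opposite strand with 61 to 244 counts per library, and whether the counting used strand is not stated. *nhr-21*, also on chromosome II, had 20.3 and 17.8 CPM in tBOOH-treated N2 and 4.37 and 6.13 CPM in untreated N2, a log2 fold change of 1.85 ± 0.57 (adjusted p = 0.0148, exact test of edgeR). In the mutant *nhr-19* had 27.3 and 24.6 CPM with tBOOH and 15.5 and 21.2 CPM without, and *nhr-21* had 10.98 and 12.1 CPM with tBOOH and 4.14 and 10.4 CPM without. Neither passed the test in the mutant. The calls of *nhr-180* and *nhr-21* in N2 were lost on leaving out any 1 of the 4 N2 libraries, and that of *nhr-19* without replicate 1 of tBOOH-treated N2 or replicate 3 of untreated N2.

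*nhr-114* was the only member called lower with tBOOH in both genotypes, 0.535% of members against 1.07% of all genes. It encodes an HNF4-related receptor that protects the germline from dietary metabolites and activates methionine cycle genes when vitamin B12 is scarce. The gene, on chromosome V, had 94 and 85 counts in tBOOH-treated mutants, 78 and 181 in untreated mutants, 229 and 172 in tBOOH-treated N2 and 605 and 892 in untreated N2. Scaled, the levels were 21.9 and 17.7 CPM in tBOOH-treated mutants, 40.4 and 67.3 CPM in untreated mutants, 38.8 and 32.6 CPM in tBOOH-treated N2 and 139 and 171 CPM in untreated N2. Untreated N2 stood clear of the other 3 groups. With tBOOH the gene fell by 2.12 ± 0.39 on the log2 scale in N2 (adjusted p = 2.2e-05, exact test of edgeR) and by 1.45 ± 0.40 in the mutant (adjusted p = 0.0149). The call in N2 was the only one of all those on members that held in each of the 8 fits leaving out 1 library, and also in the quasi-likelihood test of edgeR (adjusted p = 0.0255). The call in the mutant was lost in 6 of these 8 fits.

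Only *nhr-114* was lower in untreated mutants than in untreated N2 among members called (0.535%, against 0.195% of all genes). Its log2 difference was -1.52 ± 0.39 (adjusted p = 0.0171, exact test of edgeR), and both mutant libraries lay below both N2 libraries. The call was lost in the quasi-likelihood test of edgeR (adjusted p = 0.193) and without replicate 1 of the untreated mutants or any 1 of the 4 N2 libraries. With tBOOH the mutant was also below N2 in both libraries, by 0.85 ± 0.40 on the log2 scale (adjusted p = 0.444, exact test of edgeR). The change of the tBOOH response between genotypes was 0.67 on the log2 scale and did not pass the quasi-likelihood interaction test.

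**Figure D3:**
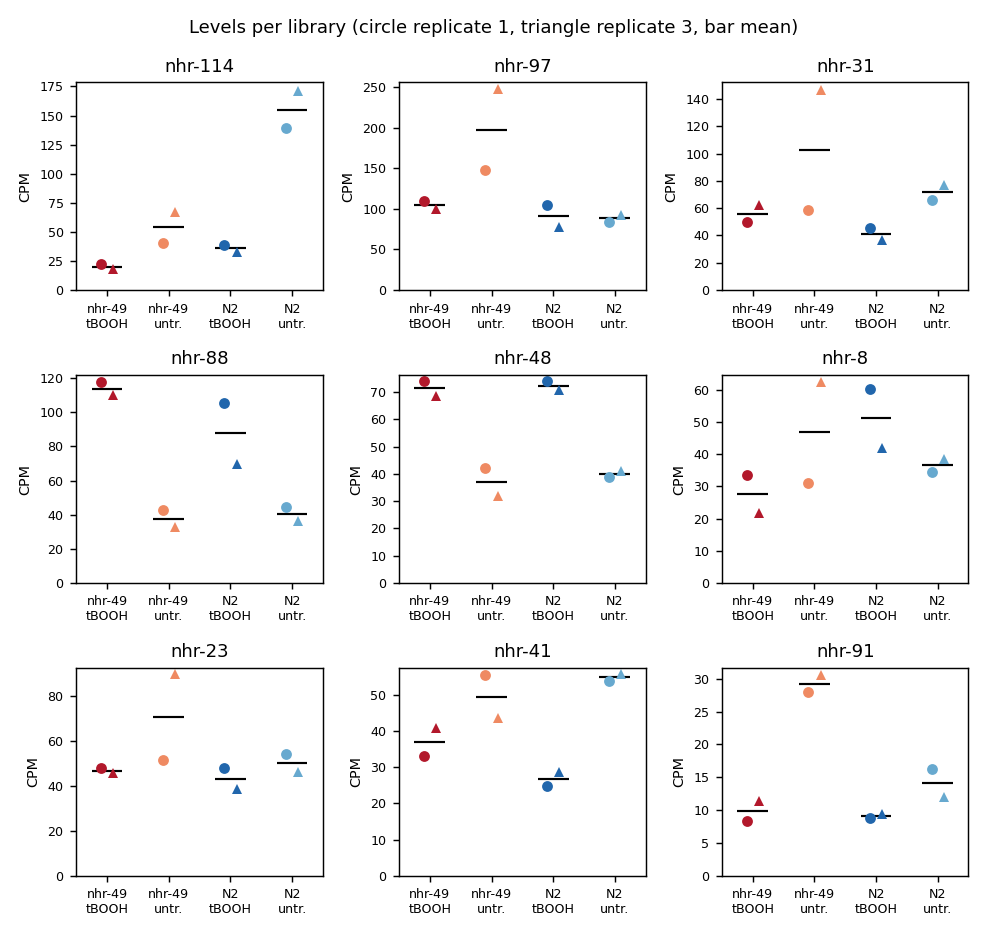
CPM per library of 9 receptor genes in the 4 groups (circle, replicate 1; triangle, replicate 3; horizontal bar, mean of the 2). *nhr-114* is highest in untreated N2, *nhr-88* and *nhr-48* are higher with tBOOH in both genotypes, and *nhr-97*, *nhr-31*, *nhr-8* and *nhr-23* have a high replicate 3 value in untreated mutants.

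The response to tBOOH pointed the same way in both genotypes for most members. The fitted change was above 0 in both for 109 members, below 0 in both for 32, and of opposite sign or 0 in one of them for 46. Signs were counted for the members only, and 11 members had at most 3 counts in every N2 library, where a sign means little. Treated and untreated libraries were separated upwards in both genotypes for 35 members (18.7%, against 11.6% of all genes) and downwards in both for 5 (2.67%, against 12%). Among genes not called anywhere, *nhr-48*, a close relative of the steroid receptor gene *daf-12*, had 74.0 and 68.7 CPM in tBOOH-treated mutants and 41.9 and 31.99 CPM in untreated mutants. In N2 it had 73.9 and 70.7 CPM with tBOOH and 38.9 and 41 CPM without. Its log2 fold changes were 0.95 ± 0.33 in the mutant and 0.86 ± 0.32 in N2 (adjusted p = 0.106 and 0.136, exact test of edgeR). *nhr-206* had 5.60 and 16.9 CPM in tBOOH-treated mutants against 1.04 and 3.72 CPM in untreated mutants, and 6.26 and 6.25 CPM in tBOOH-treated N2 against 1.61 and 0.766 CPM in untreated N2. *nhr-11* had 6.07 and 15.6 CPM in tBOOH-treated mutants against 1.04 and 3.35 CPM in untreated mutants, and in N2 12.2 and 18.0 CPM with tBOOH against 7.82 and 5.94 CPM without. For these 3 genes treated and untreated libraries did not overlap in either genotype, and none passed the test.

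**Figure D4:**
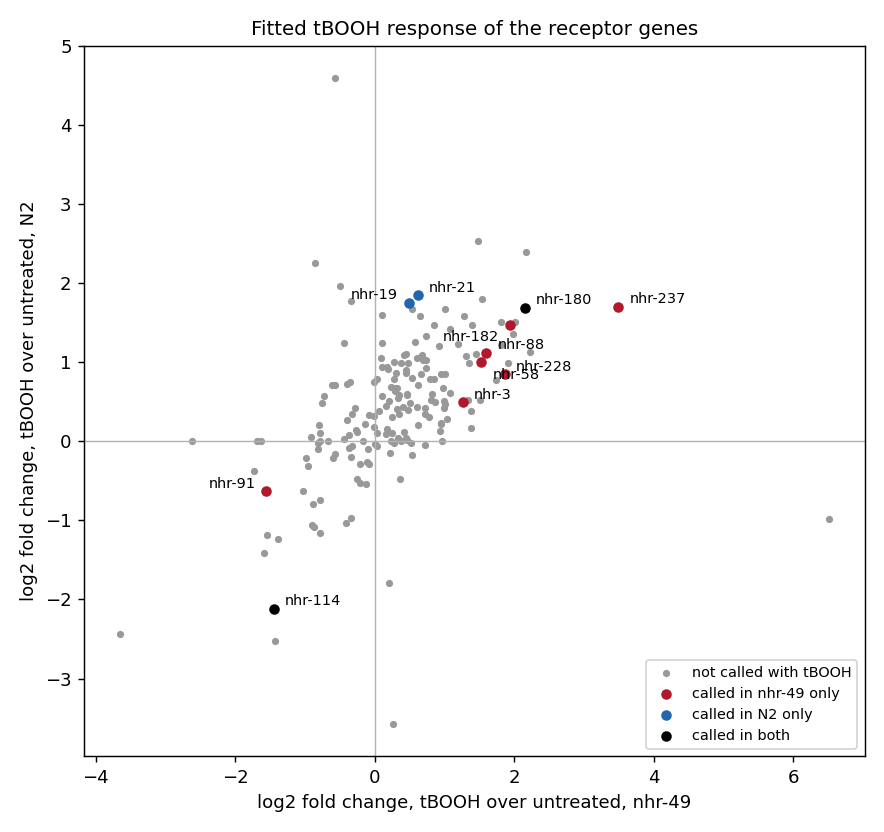
Fitted log2 fold change of tBOOH over untreated in *nhr-49* mutants (horizontal) and in N2 (vertical) for the 187 receptor genes, 1 point per gene, coloured by where the gene was called (exact test of edgeR). *nhr-180* and *nhr-114* are called in both genotypes, and 109 points lie above 0 on both axes.

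Whether the response differed between genotypes was tested as an interaction. No member passed the quasi-likelihood test of edgeR, nor did any gene in the table (0 of 187, against 0% of all genes), with 2 members and 523 genes at an unadjusted p under 0.05. DESeq2 also called 0 members. One of the 2 was *nhr-34*, with 40.2 and 35.4 CPM in tBOOH-treated mutants, 37.8 and 58.4 CPM in untreated mutants, 57.5 and 52.9 CPM in tBOOH-treated N2 and 34.3 and 31.4 CPM in untreated N2. The interaction was -1.10 on the log2 scale, a smaller fitted response in the mutant. The other was *nhr-67*, the tailless orthologue, which had 4 and 27 counts in tBOOH-treated mutants, 0 and 0 in untreated mutants, 1 and 2 in tBOOH-treated N2 and 5 and 0 in untreated N2. Most of its counts came from 1 library, so the fold is not given. The next in order were *nhr-97*, *nhr-8* and *nhr-234*. *nhr-97* had 110 and 100 CPM in tBOOH-treated mutants, 148 and 248 CPM in untreated mutants, 105.2 and 77.9 CPM in tBOOH-treated N2 and 84.2 and 92.4 CPM in untreated N2. Untreated mutants stood above the other groups for *nhr-97*, by 1.17 ± 0.38 on the log2 scale over untreated N2 (adjusted p = 0.162, exact test of edgeR). *nhr-234* was low, at 0.934 and 6.24 CPM in tBOOH-treated mutants, 1.04 and 4.84 CPM in untreated mutants, 0.169 and 0.189 CPM in tBOOH-treated N2 and 0.92 and 3.83 CPM in untreated N2.

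The genotypes were then compared under each treatment, to find receptor genes whose level differed between the strains. The effect of the mutation and any other difference between the mutant strain and N2 cannot be told apart in this design. With tBOOH, 6 members were higher in the mutant (3.21%, against 1.79% of all genes) and 0 lower (against 0.509%), by the exact test of edgeR. DESeq2 called 6 and 0 members, and 303 and 55 of all genes. At an unadjusted p under 0.05 of the exact test 19 members were higher and 2 lower, and all genes were not counted at that limit. Without tBOOH 7 were higher (3.74%, against 0.802%) and 1 lower, *nhr-114*. All 6 and all 7 members called higher had a mean under 10 CPM. Of the 64 members with at least 10 CPM, 0 were called higher under either treatment. Few of all 7984 genes at that level were called higher either, so 0 of 64 does not set these members apart. The calls under both treatments included *nhr-81*, *nhr-82*, *nhr-265*, *nhr-269* and *nhr-260*, which were in the table through their mutant libraries alone. The other members called higher were *nhr-178* with tBOOH and *nhr-155* and *nhr-181* without it. The shares of members called higher thus describe mostly such genes and not the whole family. Both mutant libraries lay above both N2 libraries for 54 members with tBOOH (28.9%, against 20.4% of all genes) and for 62 without (33.2%, against 18.3%). They lay below for 15 with tBOOH (8.02%, against 22%) and for 10 without (5.35%, against 20.7%). The median log2 difference was 0.32 with tBOOH and 0.40 without, against -0.05 and -0.03 for all genes. Without replicate 3 of the treated mutants the first median was -0.02, and without replicate 3 of the untreated mutants the second was 0.01. With both replicate 3 libraries of the mutant left out, the fit called 3 members higher and 1 lower with tBOOH, 2 of the 3 among the original 6, and 3 higher and 2 lower without it, all 3 among the original 7. The quasi-likelihood test of edgeR called 0 members in either comparison.

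Of the members called higher in the mutant, 5 were at or near 0 in every N2 library. *nhr-81*, on chromosome I, had 13 and 62 counts in tBOOH-treated mutants, 10 and 54 in untreated mutants and 0 in all 4 N2 libraries. It was thus at least 14.8-fold higher than in N2 with tBOOH and at least 19.98-fold higher without (against 3 counts per N2 library; adjusted p = 0.000771 and 0.000978, exact test of edgeR). *nhr-82*, also on chromosome I, had 3 and 35 counts in tBOOH-treated mutants, 23 and 101 in untreated mutants and 0 in all 4 N2 libraries, at least 7.42-fold and at least 39.1-fold higher (adjusted p = 0.0196 and 0.000332). No N2 count overlapped a mutant count for either gene.

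*nhr-269*, on chromosome V, had 20 and 19 counts in tBOOH-treated mutants, 9 and 59 in untreated mutants and 0 in all 4 N2 libraries. The differences from N2 were at least 8.02-fold with tBOOH and at least 21.04-fold without (adjusted p = 0.00233 and 0.000113, exact test of edgeR). *nhr-265*, 2 genes from *nhr-82* on chromosome I, had 9 and 59 counts in tBOOH-treated mutants, 5 and 63 in untreated mutants, 0 and 1 in tBOOH-treated N2 and 0 and 0 in untreated N2. It passed the test under both treatments (adjusted p = 0.0272 and 0.00964, exact test of edgeR), at least 20.6-fold higher without tBOOH and, with it, at a count ratio of 83.7 with a 95% counting interval of 14.5 to 3355. Less sharply, *nhr-155*, on chromosome V, had 9 and 55 counts in tBOOH-treated mutants, 7 and 44 in untreated mutants, 0 and 6 in tBOOH-treated N2 and 0 and 0 in untreated N2. It passed without tBOOH, where it was at least 15.8-fold higher (adjusted p = 0.0188, exact test of edgeR), and not with tBOOH (adjusted p = 0.241).

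Some, but not all, of the genes beside these receptors were also at 0 in N2. Around *nhr-81*, in the gene order of WBcel235, *glct-4*, *C47F8.6* and *C47F8.5* on one side had 2 to 16 counts in every mutant library and 0 in every N2 library. On the other side the neighbouring receptor gene *nhr-165* had 0 and 5 counts in tBOOH-treated mutants, 1 and 8 in untreated mutants and 0 in N2, whereas *C47F8.1* beyond it had 10 and 0 counts in tBOOH-treated mutants, 0 and 0 in untreated mutants, 8 and 1 in tBOOH-treated N2 and 3 and 0 in untreated N2. Between *nhr-82* and *nhr-265* lies *oac-26*, an acyltransferase gene with 0 to 7 counts in mutant libraries and 0 or 1 in N2, and beside *nhr-82* lies *oac-16*, with 8 to 17 counts in mutant libraries and 0 or 1 in N2. On the far side of *nhr-265* its direct neighbour *oac-27* was counted in both strains, with 20 to 76 counts in mutant libraries and 5 to 13 in N2. Genes farther out, such as *F14B6.2* with 27 to 54 counts in mutant libraries and 40 to 67 in N2, were counted in both strains. Around *nhr-269* the genes with a matching symbol were chemoreceptor genes with 0 to 2 counts, and C29F3.7, 6 genes away, with 131 to 956 counts in mutant libraries and 205 to 376 in N2.

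Another run lay on chromosome II. The adjacent receptor genes *nhr-72* and *nhr-257* had 2 and 17, and 4 and 26, counts in tBOOH-treated mutants, 4 and 13, and 1 and 7, in untreated mutants, and 0 in all N2 libraries. *nhr-261*, 3 genes beyond *nhr-257*, had 2 and 11 counts in tBOOH-treated mutants, 0 and 6 in untreated mutants and 0 in N2. None of these 3 passed the exact test of edgeR (lowest adjusted p = 0.0506, *nhr-257* with tBOOH). In the same run *C17A2.4*, *C17A2.7*, *C17A2.3*, *oac-4* and *oac-11* had 1 to 77 counts in mutant libraries and 0 in all N2 libraries. Farther along lay *oac-10*, with 36 to 149 counts in mutant libraries and 7 to 43 in N2.

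On chromosome V the genes next to *nhr-155* on one side, *C14C6.3* and *C14C6.6*, had 4 to 110 counts in mutant libraries and 0 in all N2 libraries. Those on the other side, *C14C6.5*, *nhr-132* and *nhr-58*, were counted in all 8 libraries. *nhr-175*, a member with 4 and 11 counts in tBOOH-treated mutants, 1 and 5 in untreated mutants and 0 in N2, sat 2 genes from the reverse case. This was *cpt-5*, a carnitine palmitoyltransferase gene, which had 0 and 1 counts in tBOOH-treated mutants, 0 and 1 in untreated mutants, 71 and 57 in tBOOH-treated N2 and 44 and 120 in untreated N2.

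Of all genes tested, 45 had 0 counts in all N2 libraries and at least 1 in every mutant library. Members made up 6 of them, 3.21% of members against 0.314% of all genes, and these were *nhr-81*, *nhr-82*, *nhr-269*, *nhr-72*, *nhr-257* and *nhr-175*. All 6 were in the table through their mutant libraries alone, so these shares describe the genes kept. The 45 genes lay on chromosome I (21 genes), II (10), V (11) and IV (1), with 2 that could not be placed. *nhr-49* itself also lies on chromosome I, and the distance of these genes from it was not examined. The reverse pattern, 0 in every mutant library and at least 1 in every N2 library, was found for 9 genes and 0 members. Mutant libraries held 2157766 to 4420382 counts and N2 libraries 4758499 to 5852727. Among the 85 nhr symbols outside the table, 18 had 0 counts in N2 and some in the mutant, and 13 had the reverse.

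**Figure D5:**
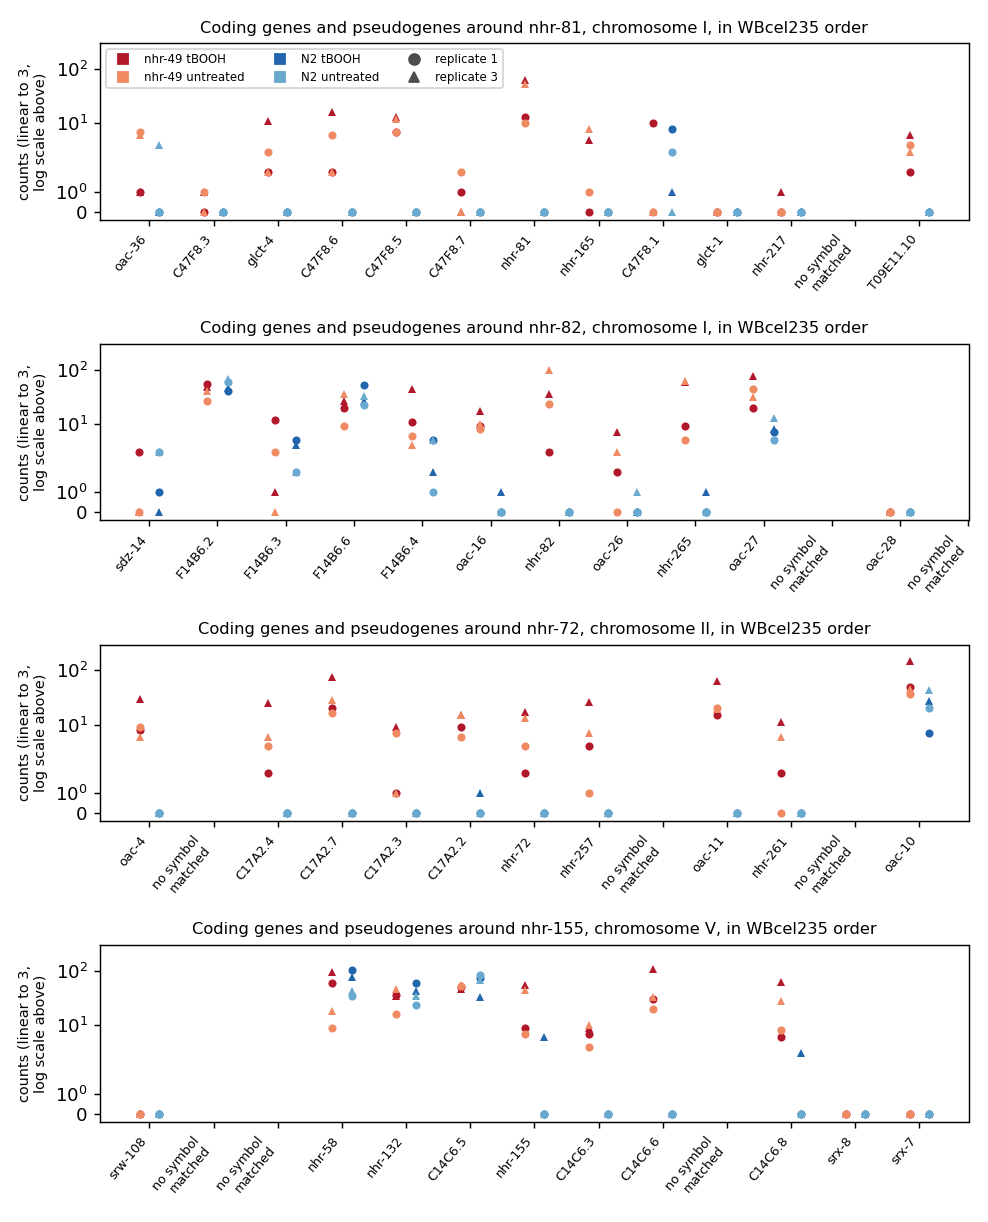
Counts per library of the genes around *nhr-81*, *nhr-82*, *nhr-72* and *nhr-155*, in the gene order of WBcel235, on an axis linear to 3 and logarithmic above it (left of each tick, *nhr-49* libraries; right, N2 libraries; genes without a matching symbol are blank). Runs of adjacent genes have counts in the *nhr-49* libraries and lie at or near 0 in N2, while *F14B6.2*, *oac-10* and *C14C6.5* are counted in both.

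The other members called higher in the mutant had counts in N2, though those of *nhr-260* were under 1 CPM in each N2 library. *nhr-260*, on chromosome V, had 13 and 36 counts in tBOOH-treated mutants, 12 and 33 in untreated mutants, 5 and 2 in tBOOH-treated N2 and 3 and 3 in untreated N2, and was called under both treatments (log2 differences 3.04 ± 0.97 and 3.82 ± 1, adjusted p = 0.0299 and 0.0034, exact test of edgeR). *nhr-181* was higher in untreated mutants, at 9.84 and 10.4 CPM, against 0.92 and 1.15 CPM in untreated N2 (3.24 ± 0.81 on the log2 scale, adjusted p = 0.00205, exact test of edgeR). With tBOOH it had 4.67 and 10.2 CPM in the mutant and 2.71 and 2.27 CPM in N2, without a call. *nhr-178* had 7.24 and 19.4 CPM in tBOOH-treated mutants and 2.2 and 2.08 CPM in tBOOH-treated N2, 2.62 ± 0.76 higher on the log2 scale (adjusted p = 0.0285, exact test of edgeR). Its exons overlap *F16B4.2* on the opposite strand, which had 2 to 122 counts per library, so its counts are uncertain. In untreated worms *nhr-178* overlapped between genotypes, at 6.21 and 16.7 CPM in the mutant and 9.66 and 5.37 CPM in N2.

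Every call between genotypes was lost on leaving out either N2 library of that comparison, while no difference reversed its sign. With 1 library left in a group the test has less power, so these losses single out neither N2 replicate. The calls of *nhr-114* without tBOOH and of *nhr-178* and *nhr-260* with tBOOH were also lost without either N2 library of the other treatment, which enters only through the dispersions. Leaving out replicate 3 of the untreated mutants also ended those of *nhr-81*, *nhr-265*, *nhr-155* and *nhr-260* without tBOOH, and leaving out replicate 3 of the treated mutants ended those of *nhr-82*, *nhr-265*, *nhr-178* and *nhr-260* with tBOOH. None of the 5 receptors near 0 in N2 had an N2 CPM above 1.14 in any library, whereas all had counts in each of the 4 mutant libraries, replicate 1 included.

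Receptors with orthologues outside nematodes are the best known of the family, and 11 of 13 listed were in the table. With tBOOH 1 of 11, *nhr-91*, was called in the mutant and 0 in N2 by the exact test of edgeR (2 at an unadjusted p under 0.05, and 1 by DESeq2, *nhr-41*), where 1.91% and 3.14% of all genes were called lower. The median log2 fold change of the 11 was -0.13 in the mutant and -0.21 in N2. Of these, 6 act in moulting and developmental timing: *nhr-23* (the ROR orthologue, part of the moulting oscillator), *nhr-25* (SF-1), *nhr-41* (HR78), *nhr-67* (tailless), *nhr-85* (Rev-erb, E75) and *nhr-91*. The fitted tBOOH change was negative for 5 of the 6 in the mutant (median -0.51) and for all 6 in N2 (median -0.68), against medians of 0.04 and 0.05 over all genes, and only *nhr-91* in the mutant passed the test. *nhr-67* enters these signs and medians although its few counts, given above, do not settle its direction. Treated libraries lay below untreated ones for 4 of the 6 in the mutant and 3 in N2 (18.9% and 27.5% of all genes). *nhr-41* had 24.9 and 28.6 CPM in tBOOH-treated N2 and 53.8 and 55.7 CPM in untreated N2, a log2 fold change of -1.04 ± 0.35 (adjusted p = 0.0621, exact test of edgeR). *nhr-23* had 47.9 and 45.6 CPM in tBOOH-treated mutants, 51.3 and 89.6 CPM in untreated mutants, 47.7 and 38.5 CPM in tBOOH-treated N2 and 54.1 and 46.0 CPM in untreated N2, so that its groups overlapped in N2. *nhr-85* had 16.8 and 26.9 CPM in tBOOH-treated mutants, 21.2 and 26.4 CPM in untreated mutants, 12.3 and 11.2 CPM in tBOOH-treated N2 and 18.4 and 15.9 CPM in untreated N2, with mutants above N2 under both treatments and no call. *nhr-25* had 8.41 and 8.53 CPM in tBOOH-treated mutants, 10.4 and 18.6 CPM in untreated mutants, 4.74 and 7.77 CPM in tBOOH-treated N2 and 13.8 and 7.09 CPM in untreated N2.

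Of 8 genes of the moult itself, *mlt-10*, *mlt-11*, *noah-1* and *noah-2* fell with tBOOH in N2 by the exact test of edgeR (median of the 8 on the log2 scale -2.53). In the mutant 0 of 8 passed that test, 3 were lower at an unadjusted p under 0.05 and DESeq2 called 1 (median -0.98). Of all genes the exact test called 3.14% lower in N2 and 1.91% in the mutant, with medians of 0.05 and 0.04. The summed level of the 8 genes was 762 and 2111 CPM in tBOOH-treated mutants, 3151 and 5366 CPM in untreated mutants, 247 and 432 CPM in tBOOH-treated N2 and 1643 and 4976 CPM in untreated N2. Hypodermal markers (*elt-3*, *dpy-7*, *bli-1* and *rol-6*) summed to 187 and 532 CPM, 762 and 417 CPM, 52.1 and 109 CPM, and 496 and 1243 CPM in the same order of groups. The untreated N2 replicates thus differed by more than 2-fold in both sums, and the part of moulting stage in the receptor values was not tested. With tBOOH the fitted level of all 8 genes was above N2 in the mutant (median log2 difference 1.45), *mlt-11* and *noah-2* passed the exact test of edgeR and DESeq2 called 3, whereas without tBOOH 4 were above and 4 below (median 0.14).

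*nhr-6*, the orthologue of the vertebrate NR4A receptors, which acts in spermatheca development, had 10.5 and 6.24 CPM in tBOOH-treated mutants, 9.84 and 4.84 CPM in untreated mutants, 1.69 and 2.65 CPM in tBOOH-treated N2 and 2.07 and 2.68 CPM in untreated N2. Both mutant groups lay above both N2 groups without a call (log2 differences 1.94 ± 0.72 with tBOOH and 1.58 ± 0.75 without, adjusted p = 0.111 and 0.504, exact test of edgeR). Of the 5 listed nuclear receptors with other names, 3 were in the table, with 0 calls by the exact test of edgeR, 0 at an unadjusted p under 0.05 and 0 by DESeq2. *daf-12*, the steroid receptor gene of dauer formation, had 30.4 and 31.01 CPM in tBOOH-treated mutants, 43.5 and 53.9 CPM in untreated mutants, 26.9 and 25.01 CPM in tBOOH-treated N2 and 43.7 and 34.9 CPM in untreated N2. Treated libraries lay below untreated ones in both genotypes, and neither difference passed (adjusted p = 0.4 in the mutant and 0.435 in N2, exact test of edgeR). Among 6 measured genes listed with DAF-12 and its ligand pathway, *din-1* included, only *daf-36* was called. This gene, for the oxygenase at the start of dafachronic acid synthesis, had 4.20 and 5.41 CPM in tBOOH-treated mutants, 21.2 and 56.2 CPM in untreated mutants, 6.60 and 3.22 CPM in tBOOH-treated N2 and 25.3 and 24.0 CPM in untreated N2. It fell by 3.01 on the log2 scale in the mutant and by 2.31 in N2 (adjusted p = 0.000184 and 0.00502, exact test of edgeR). The same test called 1.91% and 3.14% of all genes lower in these comparisons.

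Among 10 metabolic and nutrient receptors, *nhr-114* was the only one called in any comparison. The exact test of edgeR called 0.195% to 3.14% of all genes per comparison and direction. *nhr-10* and *nhr-68*, which activate the propionate shunt in series when vitamin B12 is low, were not called. *nhr-10* had 16.6 and 18.7 CPM in tBOOH-treated mutants, 8.81 and 15.3 CPM in untreated mutants, 23.9 and 16.3 CPM in tBOOH-treated N2 and 9.66 and 13.4 CPM in untreated N2, so treated libraries lay above untreated ones in both genotypes. *nhr-68* overlapped in all comparisons, at 21.02 to 52.1 CPM. Of 3 measured shunt genes, *ech-6*, the hydratase of the shunt, was called lower with tBOOH in N2, and in the mutant 0 were called by the exact test of edgeR, 1 had an unadjusted p under 0.05 and DESeq2 called 1. It had 604 and 454 CPM in tBOOH-treated N2 and 1498 and 1305 CPM in untreated N2 (adjusted p = 0.0234, exact test of edgeR). *nhr-31*, required for tubule formation in the excretory cell, had 49.97 and 62.02 CPM in tBOOH-treated mutants, 58.5 and 147 CPM in untreated mutants, 45.5 and 36.9 CPM in tBOOH-treated N2 and 66.02 and 77.2 CPM in untreated N2, with no call. *nhr-62*, known for its part in the longevity of dietary restriction, stayed between 11.5 and 31.01 CPM in all libraries and was not called.

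The methionine cycle genes, a set that NHR-114 is known to activate, were measured alongside it. Of 6, 3 were called lower with tBOOH in the mutant (*sams-1*, *mel-32* and *folt-2*) and 2 in N2 (*sams-1* and *mel-32*), by the exact test of edgeR, with median log2 fold changes of -1.31 and -1.22. Of all genes 1.91% and 3.14% were called lower, with medians of 0.04 and 0.05. *sams-1*, the S-adenosylmethionine synthetase gene, had 334 and 226 CPM in tBOOH-treated mutants, 689 and 1640 CPM in untreated mutants, 281 and 139 CPM in tBOOH-treated N2 and 787 and 989 CPM in untreated N2. *mel-32*, a serine hydroxymethyltransferase gene, had 277 and 170 CPM in tBOOH-treated mutants, 698 and 580 CPM in untreated mutants, 366 and 297 CPM in tBOOH-treated N2 and 946 and 971 CPM in untreated N2. In untreated worms, where *nhr-114* itself was lower in the mutant, 0 of the 6 genes passed the exact test of edgeR, at an adjusted or an unadjusted p under 0.05, and DESeq2 also called 0, with a median log2 difference of 0.31.

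Receptors linked to xenobiotics, immunity, iron and hypoxia gave 0 calls among 7 in each comparison by the exact test of edgeR, its quasi-likelihood test and DESeq2. They also gave 0 at an unadjusted p under 0.05. The exact test called 0.195% to 3.14% of all genes per comparison and direction, so 0 of 7 does not set these receptors apart. *nhr-8*, which acts in toxin resistance and cholesterol balance, had 33.6 and 21.9 CPM in tBOOH-treated mutants, 31.1 and 62.5 CPM in untreated mutants, 60.4 and 41.9 CPM in tBOOH-treated N2 and 34.5 and 38.5 CPM in untreated N2. With tBOOH both mutant libraries lay below both N2 libraries, by 0.88 ± 0.47 on the log2 scale (adjusted p = 0.541, exact test of edgeR). *nhr-45*, which acts in the mitochondrial stress response, had 35.7 and 44.1 CPM in tBOOH-treated mutants, 25.9 and 22.7 CPM in untreated mutants, 21.3 and 28.6 CPM in tBOOH-treated N2 and 26.5 and 24.9 CPM in untreated N2, with treated mutants above the other groups and no call. *nhr-86*, a sensor of a bacterial metabolite in the intestine, stayed between 20.6 and 33.7 CPM. *nhr-14*, which takes part in iron uptake, stayed between 20.8 and 35.0 CPM. *nhr-57*, a target of HIF-1, had 12.4 and 17.1 CPM in tBOOH-treated mutants, 2.59 and 12.3 CPM in untreated mutants, 6.94 and 10.2 CPM in tBOOH-treated N2 and 6.67 and 7.86 CPM in untreated N2.

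The study screened receptors that bind MDT-15 by RNA interference, and 13 of them were members. With tBOOH, *nhr-114* was called lower in both genotypes and no other gene of the 13 was called in any comparison. The exact test of edgeR called 1.91% of all genes lower in the mutant and 3.14% in N2. The median log2 fold change of the 13 was 0.06 in the mutant and 0.39 in N2, where 12 were above 0. For all 187 members the medians were 0.31 and 0.48, with 135 above 0 in N2. For all genes they were 0.04 and 0.05, with 7589 of 14334 above 0 in N2. *nhr-69*, an HNF4-related receptor gene, had 23.3 and 32.05 CPM in tBOOH-treated mutants, 4.66 and 22.3 CPM in untreated mutants, 26.6 and 38.3 CPM in tBOOH-treated N2 and 20.2 and 26.2 CPM in untreated N2. *nhr-28* had 15.9 and 18.5 CPM in tBOOH-treated mutants, 11.4 and 15.6 CPM in untreated mutants, 15.9 and 10.99 CPM in tBOOH-treated N2 and 14.5 and 11.7 CPM in untreated N2. *nhr-4* and *nhr-138* varied little, at 8.29 to 13.03 CPM and 8.24 to 13.1 CPM over the 8 libraries, and *nhr-273* was counted at 0 to 13 reads per library.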

How the data were processed

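RNA was extracted from whole L4 worms, depleted of ribosomal RNA and sequenced. The authors aligned reads with STAR to ce10 and deposited counts per gene symbol, which are whole numbers without normalization. The counting program and its use of strand are not given in the sources used here. The authors also deposited signal values, in CPM: each count over the effective library size (total and TMM factor), for genes above 1 CPM in 2 or more libraries. These were recomputed from the counts and differed by at most 4.5e-06.

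Counts were analysed with R 4.3.3, edgeR 4.0.16, limma 3.58.1 and DESeq2 1.42.0, using TMM factors over all 42048 genes. The exact test of edgeR, the study's test, used dispersions from all 8 libraries (common dispersion 0.131, a coefficient of variation of 36.2%) and a prior count of 0.125. A call is an adjusted p under 0.05 over the 14334 genes kept. Interactions used the quasi-likelihood test. Groups are separated where both libraries of one lie beyond both of the other. Where every library of one group was at 0, the fold is a lower bound against 3 counts per library. Gene IDs, chromosomes, coding lengths and gene order came from WBcel235, another build than ce10, so no coordinates are given; 182 of 187 members matched, and 45 have exons that overlap another gene.

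Named genes are all members called in any comparison, the 5 highest in CPM and in CPM per kb, the 3 with the largest change per comparison among separated members where no library of the higher group is under 20 counts, the 5 with the lowest interaction p, and members of the role lists. The members and lists were chosen with earlier results of these data known. Alternatives were other tests, normalizations, filters and dispersions, thinning to 2157766 counts, a prior count of 2, a replicate block and leaving out each library. Leaving out both replicate 3 libraries of the mutant, and keeping only members of at least 10 CPM, were added after seeing the data. The adjacent genes and the members at 0 in N2 were also chosen after their values were seen.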

Additional observations from a re-analysis of the deposited data

How the results depend on the processing

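The quasi-likelihood test of edgeR called fewer members than the exact test: with tBOOH 1 higher and 0 lower in the mutant and 0 higher in N2, and between genotypes 0 higher with tBOOH and 0 higher and 0 lower without. Over all genes it called 139 higher and 79 lower with tBOOH in the mutant (exact test 390 and 274), 103 and 130 in N2 (316 and 450), 39 and 12 between genotypes with tBOOH (256 and 73) and 16 and 4 without (115 and 28). With a replicate block it called 2 members higher and 0 lower with tBOOH in the mutant (all genes 248 and 217) and 3 higher and 1 lower in N2 (215 and 409). Between genotypes it then called 2 higher and 0 lower with tBOOH (127 and 35) and 4 higher and 0 lower without (46 and 11). Replicate numbers were not treated as pairing the libraries, because nothing says what a number marks and the deviations of same-numbered libraries did not correlate in every pair of groups: 4 of 6 pairs gave 0.218 to 0.353, tBOOH-treated and untreated N2 gave 0.0531 and untreated mutants and tBOOH-treated N2 gave -0.0396 (14334 genes). Dispersions from the 4 libraries compared gave 0 members higher and 0 lower with tBOOH in the mutant (all genes 169 and 89) and 23 higher and 6 lower in N2 (1136 and 1181). In N2 DESeq2, RLE factors and the filter of 10 counts in 2 libraries each gave 2 lower, and that filter gave 5 higher. Thinning gave 2 higher between genotypes with tBOOH. Calls over all genes are not given for the fits with RLE factors, the other filter, thinning or libraries left out, so those member counts have no background. Without the mutant replicate 3 libraries the counts were 4 higher and 0 lower with tBOOH in the mutant, 3 higher and 1 lower between genotypes with tBOOH, and 3 higher and 2 lower without.

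Leaving out 1 library at a time, where a lone library is assumed to vary like the other groups, gave 1 to 17 members higher and 0 to 6 lower with tBOOH in the mutant, 0 to 10 higher and 1 to 2 lower with tBOOH in N2, 0 to 19 higher and 0 lower between genotypes with tBOOH, and 0 to 13 higher and 0 to 1 lower without. The extremes above came without replicate 1 of a mutant group (17, 19 and 13 higher). The members' median log2 change ran from -0.11 (without treated mutant replicate 3) to 0.76 in the mutant and from -0.016 (the same library) to 0.77 between genotypes with tBOOH, so both turned. It ran from 0.30 (without tBOOH-treated N2 replicate 3) to 0.49 with tBOOH in N2, and from 0.01 (without untreated mutant replicate 3) to 0.78 between genotypes without tBOOH. No called member reversed its sign. The cause was not tested. Levels under 3 counts, 0.508 to 1.55 CPM by library, were not detectable at this depth.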
